A study of Rattus norvegicus with 6 samples.

Results

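Isolated tiles are short groups of array probes that stand alone in the rat genome, with no other group of probes for a long way on either side. They were chosen by position only. Consecutive probes starting within 1000 bp of each other were joined into a tile, and a tile on chromosomes 1 to 20 was counted as isolated when the nearest tile on both sides was over 300 kb away. This gave 706 isolated tiles of 16174 in all (4.37%). They were compared with 5949 crowded tiles, which have a neighbour within 20 kb on the same chromosomes. Isolation is measured here between tiles of the array design, in build rn4. The files give positions and no gene names, so whether the stretches around these tiles hold few genes was not tested, and the tiles are named by position.

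Genomic DNA came from granulosa cells, which line the ovarian follicle around the oocyte and make oestradiol, of female Sprague Dawley rats. All were daughters, killed on postnatal day 56, of dams gavaged on gestation days 1 to 21. Control dams got water (0 mg/kg) and treated dams got cadmium chloride at 8 mg/kg. Each group had 3 arrays, called biological replicates in the labels, which also speak of sequencing although the files are array scans. The labels do not tell single animals from pools or name litters, and p-values measure only the spread between these samples. On each array, DNA pulled down with an antibody against methylated cytosine (IP, Cy5) was hybridised together with input DNA (Cy3). Granulosa cells were obtained by puncturing follicles and filtering, and DNA arrays carry no cell markers against which that label could be checked.

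Methylation of cytosines in CpG pairs is the main chemical mark on mammalian DNA. CpG-rich promoters are mostly kept free of it, and CpG-poor ones often carry it. Long stretches with few genes tend to be poor in G and C and in CpG pairs. The pull-down needs methylated CpG pairs in a fragment, so a fragment can give little signal either because it is unmethylated or because it holds few CpG pairs. The ratio used here is the log2 of IP over input, set to 0 at the median of all probes of an array. A value of 1 is 2-fold above that median and a value of -1 is 2-fold below it.

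The arrays had unequal quality. Between 89.7% and 98.2% of probes had input well above background, and between 74.1% and 77.7% had IP well above it. Cadmium replicate 2 was scanned on its own, control replicates 1 and 2 together with cadmium replicate 1 (scan batch 2), and control replicate 3 with cadmium replicate 3 (scan batch 3). Over isolated tiles, ratios correlated between arrays at r = 0.982 to 0.992 for the other 5 arrays, and at r = 0.948 to 0.962 between these and cadmium replicate 2. These r values are across tiles, which are not independent replicates, and describe the arrays only. The standard deviation of the ratios over isolated tiles was 1.11 to 1.19 on 5 arrays and 0.80 on cadmium replicate 2. Ratios of that array thus lay closer together at both ends.

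Isolated tiles were built like the rest of the array. Their median length was 1668 bp with 10 probes, against 1667 bp and 10 probes in crowded tiles. Of the 706, 606 held 8 to 11 probes, 81 held fewer, 18 held 12 to 16, and 1 on chromosome 7 held 262. The nearest tile was 300.7 to 4623 kb away, with a median of 483 kb. In 371 members that distance was up to 500 kb, in 238 it was over 500 and up to 1000 kb, and in 97 it was over 1000 kb. Just inside the limit were tiles on chromosome 12 from 5793353 to 5795102 (300.7 kb, control ratio -1.28), on chromosome 13 from 66955064 to 66956698 (300.8 kb, -0.86) and on chromosome 5 from 5747979 to 5748812 (300.9 kb, 0.058). Just outside it were tiles on chromosome 4 from 94937181 to 94938740 (299.9 kb, -0.12) and a pair on chromosome 3 that starts at 66819924 and at 67121127 (299.7 kb, -1.02 and -1.79). Members lay on all 20 chromosomes, from 6 on chromosome 12 (1.39% of its tiles) and 15 on chromosome 10 (1.14%) to 82 on chromosome 2 (8.39%).

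The probes of isolated tiles were slightly longer. Probes on such designs are commonly lengthened where the sequence is poor in G and C, to keep melting temperatures alike, and the shortest length here was 45 bases and the longest 60. Of the probes of isolated tiles, 46.9% had 45 bases and 15.0% had 60, against 48.7% and 13.6% in crowded tiles. Without the tile of 262 probes the shares in isolated tiles were 48.2% and 14.4%. Tiles with at most 20% of their probes at 45 bases made up 20.3% of isolated and 16.8% of crowded tiles. Tiles with at least 80% at 45 bases made up 14.7% and 16.4%. The files hold no probe sequence, so base and CpG content were not measured.

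Of the 706 members, 696 kept the 3 usable probes needed for a value, and 10 did not. A usable probe had input well above background on each of the 6 arrays and was marked as an outlier on none, which held for 5212 of 6853 probes of isolated tiles (76.1%) and for 77.2% in crowded tiles. In 888 of the 5212 (17.0%) the IP signal was well above background on no array, so the size of their low ratios is uncertain. The share was 15.4% in crowded tiles.

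Isolated tiles had nearly the same mean ratio as crowded ones, and a wider range. In controls the mean over isolated tiles was -0.389, -0.406 and -0.367 on replicates 1, 2 and 3, and that over crowded tiles was -0.367, -0.358 and -0.322. In cadmium offspring it was -0.367, -0.384 and -0.319 in isolated and -0.332, -0.348 and -0.282 in crowded tiles. Isolated tiles were the lower ones on all 6 arrays, by -0.039 ± 0.014 (control) and -0.036 ± 0.00026 (cadmium; SD, 3 arrays each). The gap is small and its sign depends on the processing. It was 0.026 after loess, 0.047 when IP also had to be well above background and 0.0021 after normexp background correction, and -0.0089 ± 0.013 (SD, n = 3) when tiles were compared within their own chromosome. Between cadmium and control offspring the gap differed by 0.0028, and by -0.00021 and 0.0092 within scan batches 2 and 3, all smaller than the spread between control arrays.

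**Figure D1:**
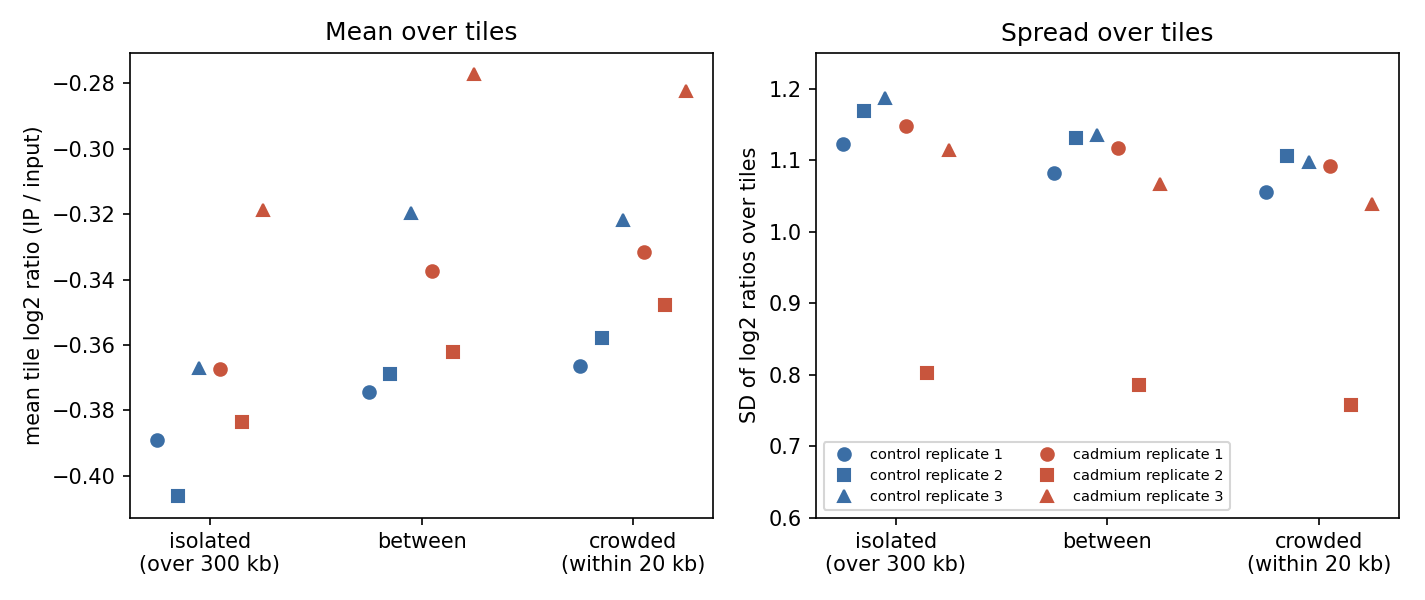
The left panel plots the mean tile log2 ratio of IP over input on each array for isolated tiles (over 300 kb), crowded tiles (within 20 kb) and tiles between; the right panel plots the standard deviation of the ratios over tiles, on an axis that starts at 0.6. Blue marks are control and red marks cadmium arrays, and the marker shape gives the replicate; on every array the isolated tiles have the lower mean and the wider spread, and cadmium replicate 2 (red square) has the narrowest spread, 0.80 over isolated tiles.

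Against crowded tiles, the wider range was seen on all 6 arrays and under all settings that were run. The standard deviation over isolated tiles was 1.16 ± 0.033 (control) and 1.02 ± 0.19 (cadmium; SD, 3 arrays each), against 1.09 ± 0.027 and 0.96 ± 0.18 over crowded tiles. In controls the difference was 0.073 ± 0.014 (SD, n = 3). By distance, members at 300 to 500 kb did not stand out. The standard deviation of control means over tiles was 1.08 for these 370 members, 1.23 at 500 to 1000 kb and 1.22 beyond. In tiles that are no members it was 1.00 up to 5 kb from the nearest and 1.11 at 5 to 20 kb. At 20 to 50, 50 to 100 and 100 to 300 kb it was 1.11, 1.09 and 1.13. Which end differed more depended on the measure. The 95th percentile was higher in isolated than in crowded tiles by 0.19 ± 0.011, and the 5th percentile was lower by a difference of -0.10 ± 0.068 (SD, n = 3, control). The share of tiles over 2-fold above the median was higher by 1.48 ± 0.44 percentage points. For those over 2-fold below it the excess was 2.39 ± 0.57 points (SD, n = 3, control). On all 6 arrays, 20 of 696 isolated tiles (2.87%) exceeded the array median by over 2-fold, against 88 of 5773 crowded tiles (1.52%). The share was 1.81% of tiles between and 1.71% of all tested tiles. At the other end, 140 isolated tiles (20.1%) lay over 2-fold below the median on all 6, against 1050 crowded tiles (18.2%) and 18.4% of all tested tiles. Without cadmium replicate 2 the upper shares were 9.91% and 8.00%, and the lower ones 26.1% and 23.5%. After loess the shares above on all 6 arrays were 0.718% and 0.502%, and after normexp 1.01% and 0.502%. These shares describe the tiles and carry no test.

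The 20 members at the upper end had control ratios of 1.27 to 2.61 and lay on 13 chromosomes. Their IP signal was well above background on all 6 arrays for 98.4% of their 122 usable probes. The highest control ratio was in a tile on chromosome 7 from 110267048 to 110268816 with 7 usable probes. It had 2.51, 2.69 and 2.63 in controls and 2.75, 1.22 and 2.57 in cadmium offspring, so that 5 arrays stood together and cadmium replicate 2 was the low one. Next came chromosome 3 from 151118331 to 151119928, with 2.22, 2.32 and 2.51 in controls and 2.27, 0.89 and 2.44 in cadmium offspring. The next in order were both on chromosome 1, from 125286434 to 125287375 (control 2.33 ± 0.25, cadmium 1.92 ± 0.68) and from 256279071 to 256280231 (2.31 ± 0.17 and 2.00 ± 0.56; SD, n = 3 each). In both of these as well, cadmium replicate 2 was the lowest array. At least 75% of the probes of each of these 4 tiles had the shortest length of 45 bases.

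Most members at the lower end had few probes of the shortest length. Of the 140, 81 had at most 20% of their probes at 45 bases, and 34.5% of their 1189 usable probes had an IP signal well above background on no array. The lowest control ratio was in a tile on chromosome 7 from 93894995 to 93896079, with -3.21, -3.14 and -3.60 in controls and -3.31, -2.91 and -2.77 in cadmium offspring. All 4 of its usable probes were without IP signal well above background on every array, so the size of these values is uncertain. The control ratio of this tile was -3.17 after quantile normalization, -1.83 after loess, -1.52 in the deposited table and -1.03 after normexp. The next were on chromosome 2 from 82398257 to 82400047 (-3.31 ± 0.42 in control), on chromosome 1 from 48250929 to 48252632 (-3.08 ± 0.18) and on chromosome 8 from 7190146 to 7191859 (-3.01 ± 0.12; SD, n = 3 each). Usable probes with no IP signal well above background on any array numbered 1 of 3, 1 of 5 and 2 of 3 in these tiles. They held 11, 9 and 10 probes in all, so their values rest on few of them. Without the filter on dim probes the control ratios were -2.06, -3.08 and -0.96. With outlier spots kept they were -1.72, -3.51 and -3.01.

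Across the 696 members the control ratio followed the mean probe length of the tile, with r = -0.73, and with r = -0.70 over crowded tiles. This is a description across tiles that share arrays and base composition. Set within probe length, isolated tiles stood apart at the shortest probes. The 45-base probes averaged 0.90 ± 0.039 in isolated and 0.70 ± 0.035 in crowded tiles of controls, and 0.77 ± 0.26 and 0.60 ± 0.21 in cadmium offspring (SD, n = 3 each; 2377 and 25759 probes). The difference was 0.21 ± 0.011 in control and 0.17 ± 0.051 in cadmium offspring, positive on all 6 arrays and between 0.11 and 0.22 on single arrays, the lowest being cadmium replicate 2. With the normalization, filters, tile gap or crowded limit changed it kept its sign on all 6 arrays. It depended on the isolation limit, however. In controls it was 0.17 at a limit of 200 kb, 0.13 at 500 kb and -0.016 at 1000 kb, so it was not seen in the most distant members. Probes of 46 to 49 bases went the other way, with -0.75 ± 0.020 in isolated and -0.63 ± 0.017 in crowded tiles of controls, a difference of -0.12 ± 0.027 that was negative on all 6 arrays. At 50 to 54, 55 to 59 and 60 bases the differences in controls were -0.057 ± 0.026, -0.064 ± 0.047 and -0.028 ± 0.017 (SD, n = 3). Averaged within each length and weighted by the probes of isolated tiles, isolated tiles lay above crowded ones by 0.056 ± 0.011 in control and 0.050 ± 0.014 in cadmium offspring. Without grouping by length, the same probes differed by -0.031 ± 0.013 in controls, and by 0.017 ± 0.010 without the tile of 262 probes.

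**Figure D2:**
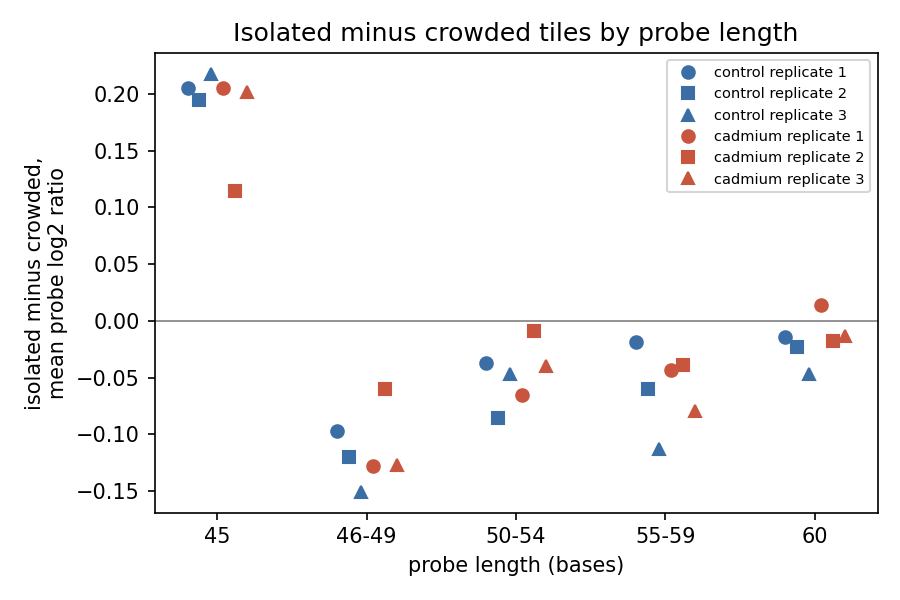
Mean probe log2 ratio of isolated minus that of crowded tiles, by probe length in bases, for each array (blue control, red cadmium, marker shape the replicate). At 45 bases all 6 arrays lie above 0, between 0.11 and 0.22; at 46 to 49, 50 to 54 and 55 to 59 bases all 6 lie below 0, and at 60 bases 5 of 6 do.

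Whole tiles were then grouped by their share of 45-base probes. Among tiles with at least 80% of probes at 45 bases, the 104 isolated ones had 0.86 ± 0.056 and the 890 crowded ones 0.68 ± 0.047 in controls, a difference of 0.17 ± 0.014. In cadmium offspring the difference was 0.15 ± 0.055 (SD, n = 3 each). Among tiles with over 20% and under 80% it was -0.038 ± 0.015 in controls (455 and 3935 tiles), and among those with 20% or fewer it was 0.045 ± 0.041 (137 and 948 tiles), with isolated tiles higher on 5 of 6 arrays, whereas single probes of 60 bases were lower in isolated tiles on 5 of 6. Among short-probe tiles the isolated ones were higher on all 6 arrays, by 0.089 to 0.19.

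Members beyond 1000 kb were the low group. In controls it was -0.30 ± 0.014 for the 370 tested members with the nearest tile at 300 to 500 kb, -0.40 ± 0.030 for 235 at 500 to 1000 kb and -0.68 ± 0.021 for 91 beyond 1000 kb (SD, n = 3). Among tiles that are no members, those 20 to 50 kb from the nearest had -0.40 ± 0.028 and those at 100 to 300 kb -0.30 ± 0.034, so that the bins up to 1000 kb showed no steady order. In cadmium offspring the 3 values of members were -0.28 ± 0.032, -0.37 ± 0.048 and -0.62 ± 0.025. Members beyond 1000 kb lay below crowded tiles by -0.34 ± 0.029 in controls, and below them on all 6 arrays under each setting that was run, with -0.16 as the value nearest to 0. Their probes were also longer. The mean probe length per tile was 50.3 bases beyond 1000 kb and 49.4 bases at 300 to 500 kb, and 30.8% of them against 17.0% had at most 20% of their probes at 45 bases. Over the 696 members the ratio and the logarithm of the distance correlated at r = -0.11, a weak relation across tiles.

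**Figure D3:**
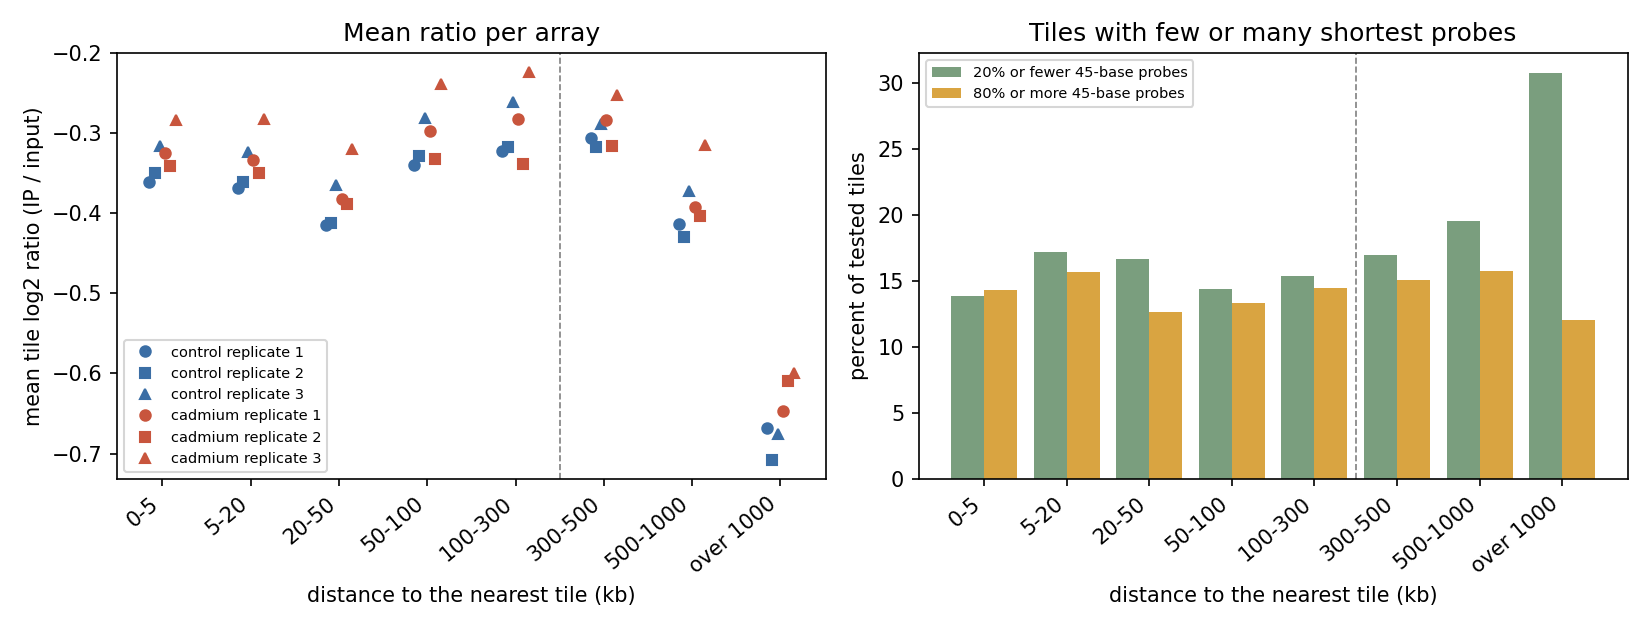
The left panel plots the mean tile log2 ratio on each array against the distance to the nearest tile in kb, for tiles on chromosomes 1 to 20 (blue control, red cadmium, marker shape the replicate); the right panel gives the percent of tested tiles with 20% or fewer (green) or 80% or more (yellow) probes of 45 bases. Isolated tiles lie right of the dashed line; beyond 1000 kb all arrays are lowest, with a control mean of -0.68, and 30.8% of tiles have few of the shortest probes.

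Of the members with the largest distances, the loneliest was a tile on chromosome 13 from 22854944 to 22856697, with 4623 kb to the left and 5852 kb to the right. Its ratio was -0.71, -1.08 and -1.02 in controls and -0.93, -0.68 and -1.04 in cadmium offspring, and the groups overlapped. A tile on chromosome 14 from 57323399 to 57325146 (4434 kb) stood above the array median, with 0.69, 0.83 and 0.55 in controls and 0.93, 0.51 and 0.67 in cadmium offspring. So did a tile on chromosome 19 from 5684614 to 5686293 (3459 kb), with 0.95 ± 0.11 and 0.90 ± 0.17, whereas a tile on chromosome 5 from 44726805 to 44728459 (3135 kb) had -0.98 ± 0.056 and -0.95 ± 0.069 (SD, n = 3 each). Of these 4, the ones above the median had 77.8% and 72.7% of their probes at 45 bases, and the ones below it fewer. When IP also had to be well above background, those below it turned positive, with 0.30 on chromosome 13 and 0.25 on chromosome 5. This filter left 5 of 9 usable probes in each of them. It removes probes with dim IP and so favours higher ratios by construction.

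Chromosomes did not share one direction. In controls, isolated tiles lay below the crowded tiles of their own chromosome on 12 of 20 chromosomes and above on 8; on 7 chromosomes they were below on all 6 arrays, and on 7 above on all 6. Chromosome 18 had the widest gap upwards, with -0.46 ± 0.022 over 28 isolated tiles and -0.88 ± 0.024 over its crowded tiles (SD, n = 3). On chromosome 19 isolated tiles had 0.43 ± 0.049 (19 tiles) and crowded ones 0.059 ± 0.026, and it was the one chromosome on which the isolated mean was above the array median. Gaps downwards were -0.41 ± 0.035 on chromosome 14 and -0.89 ± 0.0083 on chromosome 12, the latter over 6 tiles.

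Adjoining tiles far apart resembled each other less than those within 100 kb. Over pairs of adjoining tiles up to 5 kb apart the control ratios correlated at r = 0.36 (725 pairs). Over pairs 5 to 20, 20 to 50 and 50 to 100 kb apart r was 0.41, 0.36 and 0.28, and over pairs 100 to 300 and 300 to 500 kb apart it was 0.17 and 0.10. At 500 to 1000 kb it was 0.046 (635 pairs) and beyond 1000 kb 0.085 (438 pairs). For mean probe length r was 0.70, 0.75, 0.68, 0.49, 0.40, 0.20, 0.16 and 0.11 in the same order of distance. For 271 pairs of isolated tiles that followed each other directly, r was 0.046 and the median absolute difference 1.09. These correlations are across pairs of tiles and describe the design and the arrays together.

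Probes within a member varied widely. The median standard deviation among the usable probes of an isolated tile was 1.77, and that among crowded tiles 1.74. Along tiles of 1200 to 2000 bp, probes of isolated tiles in controls averaged -0.33 ± 0.028 within 200 bp of the tile's centre, -0.31 ± 0.034 at 200 to 400 bp, -0.25 ± 0.023 at 400 to 600 bp and -0.52 ± 0.013 beyond (SD, n = 3; 649 tiles). Crowded tiles had -0.40 ± 0.017, -0.25 ± 0.033, -0.14 ± 0.024 and -0.41 ± 0.024. In both kinds of tile the zone at 400 to 600 bp was the highest and the one beyond 600 bp the lowest, by less than the spread between arrays from the centre in crowded tiles, and the centre of isolated tiles lay nearer to the zones beside it.

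The largest range within a member was found on chromosome 5 from 7660901 to 7662610, where a single probe stood out from its tile. The probe from 7661610 to 7661665 averaged 4.41 ± 0.35 in controls and 3.94 ± 0.88 after cadmium, and the flanking probes from 7661451 to 7661510 and from 7661772 to 7661824 had -3.26 ± 0.16 and -4.42 ± 0.61 in control (SD, n = 3). Of its 10 usable probes, 5 had an IP signal well above background on no array, and the high probe had one on all 6.

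The member with 262 probes covers 49925 bp on chromosome 7 from 29077660 to 29127584 and is tiled throughout. Its ratio over 217 usable probes was -1.48, -1.63 and -1.56 in controls and -1.54, -1.15 and -1.45 in cadmium offspring. In controls, 50 of the 217 probes lay above 0. In 10 segments of 5 kb, the control mean ran from -2.33 ± 0.071 (35 to 40 kb from its start) to -0.87 ± 0.028 (30 to 35 kb), so that the lowest and the highest segments adjoined each other. Its 34 probes of 45 bases had 0.22 ± 0.070 and its 59 probes of 60 bases -2.48 ± 0.081 in controls (SD, n = 3).

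The comparison of the dams' treatments asked whether cadmium in pregnancy changed methylation in the granulosa cells of adult daughters. No isolated tile passed the test fitted over all tiles (limma, lowest adjusted p = 0.856 among the 696 tested members). Over all 15846 tested tiles 1 passed (0.00631%), which is no member. At an unadjusted p under 0.05 in limma there were 30 members (4.31%, against 3.57% of all tiles). Of these, 29 members were higher in cadmium offspring (4.17%, against 3.26% of all tiles) and 1 was lower (0.144%, against 0.303%). The groups did not overlap in 62 members that were higher (8.91%, against 7.95% of all tiles) and 18 that were lower (2.59%, against 2.28%). Without cadmium replicate 2, 34 members had an unadjusted p under 0.05 in limma (4.89%, against 4.62% of all tiles). The groups then did not overlap in 108 members that were higher (15.5%, against 14.2%) and 34 that were lower (4.89%, against 4.32%). All these shares lie near those of all tiles. The median difference was 0.034 in isolated, 0.025 in crowded and 0.028 in all tiles, and 0.040 in isolated tiles without cadmium replicate 2. With all arrays, 692 of 696 members differed by under 0.5. The 95% confidence interval of a member's difference reached 0.31 to each side (median), so smaller differences could not be told from 0 for most members.

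With all arrays, the direction of the differences followed the level of the tile. Members with a control ratio under -2 had a median difference of 0.30, those from -2 to -1 of 0.17 and those from -1 to 0 of 0.055. Those from 0 to 1 had -0.079 and those over 1 had -0.22. Without cadmium replicate 2 these medians were 0.17, 0.066, 0.040, 0.022 and 0.012, all of them positive. In crowded tiles they were 0.26, 0.17, 0.053, -0.070 and -0.21 with all arrays. Without cadmium replicate 2 they were 0.11, 0.062, 0.035, 0.030 and 0.0036.

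**Figure D4:**
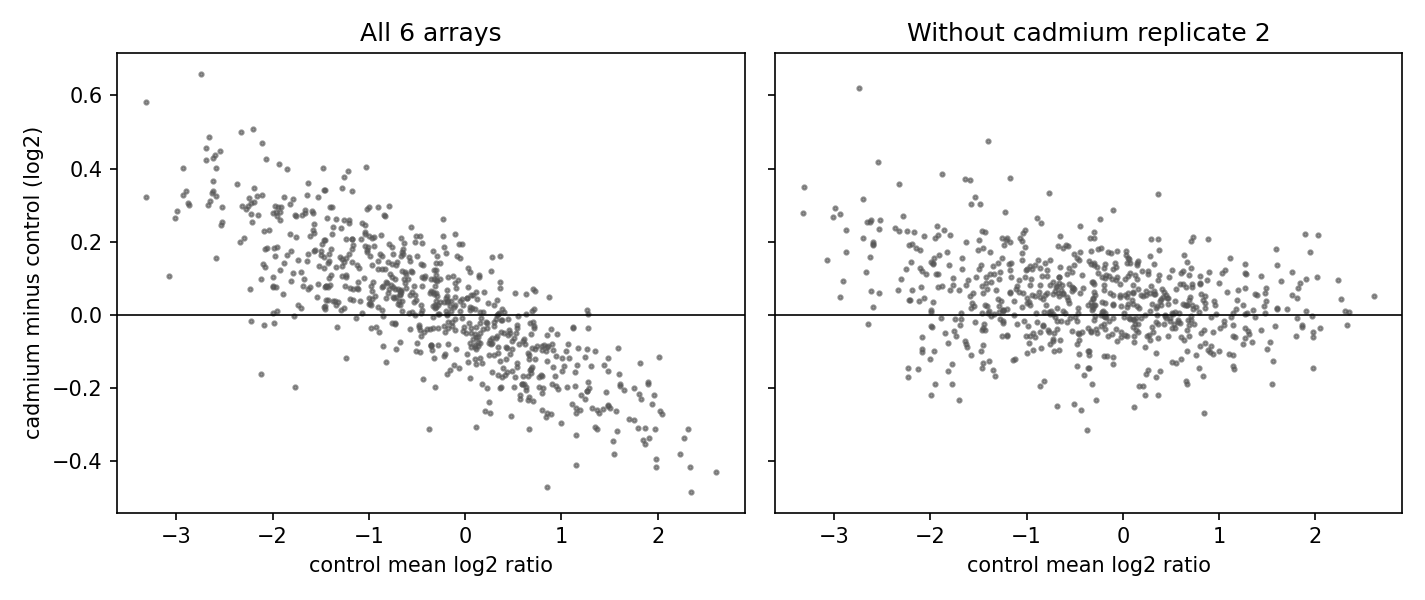
Each point is an isolated tile, with its control mean log2 ratio on the horizontal axis and the cadmium minus control difference in log2 on the vertical axis, for all 6 arrays (left) and without cadmium replicate 2 (right). The control mean enters both axes, with opposite sign; the downward tilt of the left panel is weaker in the right panel, where members with control ratios over 1 have a median difference of 0.012.

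The largest difference among members, and the smallest p, belonged to a tile on chromosome 12 from 18731607 to 18733369 with 8 usable probes and empty stretches of 521 kb and 821 kb beside it. Its ratio was -2.61, -2.89 and -2.72 in controls and -2.22, -2.01 and -2.02 in cadmium offspring. The groups did not overlap, and the cadmium arrays were all higher. The difference was 0.66 (SE 0.12, 95% confidence interval 0.38 to 0.94), or 1.58-fold, higher on 3 of 3 cadmium arrays, and it did not pass (limma adjusted p = 0.856). It was 0.54 within scan batch 2, 0.70 within batch 3 and 0.62 without cadmium replicate 2 (limma adjusted p = 0.232). The size depended on the processing. It was 0.25 with arrays set to equal spread, 0.40 after quantile normalization and in the deposited table, and 0.42 after normexp. It was larger after loess (0.96) and with both channels well above background (0.73).

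Split into channels, the difference lay in the input. The IP signal of this tile, as log2 relative to the array median, was -1.35, -1.73 and -1.54 in controls and -1.62, -1.77 and -1.65 in cadmium offspring. Its input signal was 1.16, 1.07 and 1.12 in controls and 0.50, 0.12 and 0.32 in cadmium offspring. The input of every cadmium array was therefore below that of every control array, by a difference of -0.81 (limma adjusted p = 0.297), whereas the IP difference was -0.14 (limma adjusted p = 0.999). Of its 8 probes, 7 had differences from 0.44 to 1.11 and 1 of 0.019. The first 3 usable probes, from 18731607 to 18732495, formed a run, meaning 3 or more adjoining probes of one direction, each with p under 0.05 before adjustment. It was the one run in isolated tiles, of 15 in all tiles, and isolated tiles are 4.37% of all tiles. The tile was picked for its small p over these same probes. The run and the shared direction of its probes are therefore no separate support.

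The tile passed in 2 of the alternative fits. With scan batch as a block it had limma adjusted p = 0.0355, as 1 isolated tile among 24 called (0.151% of all tiles); cadmium replicate 2, alone in its batch, then adds nothing to the difference. With scan batch as a random block it did not pass (limma adjusted p = 0.0717), and no isolated tile did. With array weights it had limma adjusted p = 0.00559, as 1 of 5 isolated tiles among 106 called (0.669%). The other 4 called with array weights were named after their values were seen. They lay on chromosome 14 from 15819786 and from 28854184, on chromosome 15 from 93209523 and on chromosome 19 from 17944315, with adjusted p of 0.0286 to 0.0492 (limma). The direction within batches is fixed for a tile chosen because its groups do not overlap, so these fits are no separate support for the tile on chromosome 12.

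Further tiles were those with the smallest p in each direction among members with at least 4 usable probes and groups that do not overlap. Each had limma adjusted p = 0.856. The one lower member with an unadjusted p under 0.05, named after its values were seen, lay on chromosome 5 from 83563411 to 83564528 and had overlapping groups and 3 usable probes. Upwards, the tile from 23134597 to 23136225 of chromosome 5 had -1.58, -1.34 and -1.52 in controls and -1.09, -0.88 and -1.26 in cadmium offspring, and its IP difference of 0.27 was larger than its input difference of -0.14. Its difference of 0.40 was 0.30 without cadmium replicate 2, 0.037 after normexp and 0.11 in the deposited table. On chromosome 6, a tile from 72683946 to 72685593 had a difference of 0.45 (SE 0.15), with 0.68 within scan batch 2 and 0.17 within batch 3. It was 0.42 without cadmium replicate 2, and -0.024 in the deposited table. Of its 8 usable probes, 6 had no IP signal well above background on any array. Its IP difference was 0.21 and its input difference -0.25. A tile from 146987029 to 146988646 on the same chromosome had -2.94 ± 0.040 in controls against -2.61 ± 0.11 after cadmium (SD, 3 arrays each). The difference of 0.33 was 0.28 without cadmium replicate 2 and -0.14 with equal spread of arrays. By channel it was 0.15 in IP and -0.19 in input.

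Downwards, the 4 tiles had unadjusted p of 0.0501 to 0.0827. The tile from 17613924 to 17615578 of chromosome 18 had 1.62, 1.48 and 1.54 in controls and 1.43, 0.78 and 1.28 in cadmium offspring. Its difference of -0.38 (SE 0.17) was -0.19 without cadmium replicate 2. On chromosome 5, a tile from 159147549 to 159149312 had a difference of -0.31 (SE 0.14), and -0.19 without that array. On chromosome 6, tiles from 69216373 to 69218156 and from 74476015 to 74477748 had -0.25 and -0.27, and -0.14 and -0.15 without it. In each of these 4 tiles cadmium replicate 2 was the lowest array. That the other cadmium arrays also lay below all controls was fixed by the choice of tiles. In the tile from 74476015 this held narrowly, with 0.171 on cadmium replicate 1 and 0.172 on control replicate 2. By channel, the IP and input differences were -0.18 and 0.20 on chromosome 18 and -0.13 and 0.18 on chromosome 5. On chromosome 6 they were -0.068 and 0.18 in the tile from 69216373, and -0.25 and 0.0063 in the tile from 74476015.

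**Figure D5:**
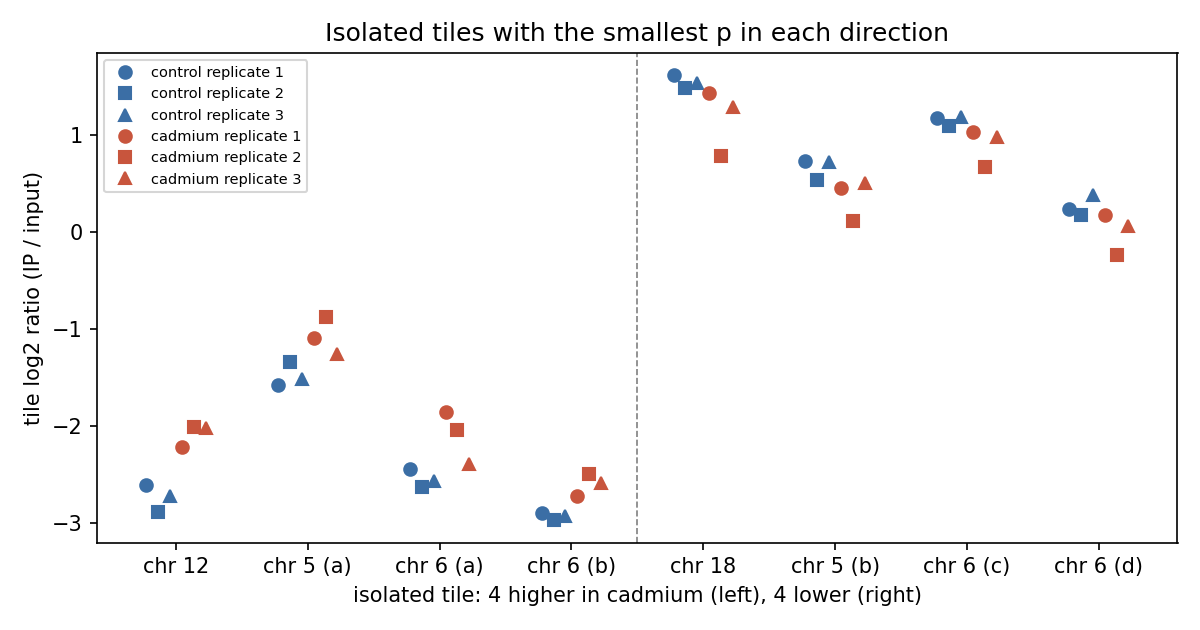
Tile log2 ratio of IP over input on each array (blue control, red cadmium, marker shape the replicate) for isolated tiles with groups that do not overlap and at least 4 usable probes: the 4 with the smallest p that were higher in cadmium offspring, left of the dashed line, and the 4 that were lower, right of it. Letters tell tiles of the same chromosome apart; the tile on chromosome 12 has the largest difference (0.66), and in the 4 tiles on the right cadmium replicate 2 (square) is the lowest array.

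In the channels taken singly, no isolated tile passed. For the IP signal 22 of 696 members had an unadjusted p under 0.05 in limma (3.13% of all tiles did), and 0 passed (0.0% of all tiles, lowest adjusted p among members 0.999). For input 7 members had an unadjusted p under 0.05 (1.56% of all tiles), and 0 passed (0.00631% of all tiles, lowest adjusted p among members 0.297). Of single probes in isolated tiles, 0 of 5212 passed (0.0% of all 132042 probes; limma, lowest adjusted p = 0.910). At an unadjusted p under 0.05 there were 191 (3.66%, against 3.13% of all probes), of which 162 were higher in cadmium offspring. In the same test 3541 of 4134 probes of the whole array were.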

How the data were processed

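The authors deposited 1 scanner file per array. Its intensity values were made, per the file headers, with Feature Extraction 11.0.1.1 (Agilent), which subtracted background and multiplied each channel by a linear dye factor; the design uses build rn4. Per the labels' protocols, IP DNA carried Cy5 and input Cy3 on all arrays. The authors also deposited a table of log2 values, with scaling and centring unstated; the submitters' processing notes name limma.

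Log2 ratios of 172669 probes were centred on each array's median, with no loess or quantile step, and averaged over at least 3 usable probes per tile (132042 probes, 15846 tiles). Tiles and probes were compared with lmFit and eBayes (limma 3.58.1, R 4.3.3), two-sided and without covariates. The p-values were adjusted by Benjamini-Hochberg over all tiles or probes, at a threshold of 0.05. The fit and adjustment were tested on simulated tile values, and the filtering, centring and averaging were not. Isolated minus crowded values are per-array means without a test. The number of arrays limits the precision. Alternatives covered normalization, background, filters, tile and distance limits, blocks, weights, left-out arrays and the deposited table.

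Tiles were named by a fixed rule: the 4 with the largest distance, the 4 highest and 4 lowest control ratios, up to 4 in each direction with the smallest p among non-overlapping tiles of at least 4 usable probes, 3 on each side of the 300 kb limit, the most probes and the largest range. The members and lists were chosen with earlier results of these data known. Same-numbered arrays of both groups correlated in their deviations from the group means at -0.19, -0.10 and 0.37. Deviations from a mean of 3 arrays depend on each other, so these values cannot tell whether the numbers pair arrays. The labels do not say so, and the main fit used no pairs.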

Additional observations from a re-analysis of the deposited data

How the results depend on the processing

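3 arrays per group and low IP signal in depleted tiles limit what could be detected. The gap at 45-base probes, the gap in spread, the tiles over 1000 kb away and the excess of enriched tiles were chosen as results after seeing the data, as were the settings isolation limit of 1000 kb, centring on usable probes and comparison within chromosomes. The mean gap between isolated and crowded tiles in controls (-0.039) was 0.026 after loess, 0.0021 after normexp, -0.022 without the filter on dim probes, 0.047 with both channels well above background, -0.013 in the deposited table, -0.13 and -0.34 at isolation limits of 500 and 1000 kb, -0.056 with chromosome ends counted, -0.065 and -0.018 at crowded limits of 10 and 50 kb, 0.056 within probe lengths and -0.0089 within chromosomes; its cadmium minus control difference (0.0028) was -0.011 with both channels well above background and 0.015 and 0.037 at limits of 500 and 1000 kb. The gap at 45-base probes (0.21) was 0.19 after quantile normalization, 0.19 with equal spread, 0.15 after normexp, 0.25 without the filter on dim probes, 0.14 in the deposited table, 0.17, 0.13 and -0.016 at isolation limits of 200, 500 and 1000 kb, 0.16 with a tile gap of 2000 bp, and 0.25 and 0.17 at crowded limits of 10 and 50 kb. The gap in spread (0.073) was 0.035 after loess, 0.046 after normexp, 0.057 with both channels well above background, 0.054 in the deposited table, 0.14 with medians of probes, 0.15 and 0.14 at limits of 500 and 1000 kb, 0.024 with a tile gap of 500 bp and 0.11 at a crowded limit of 10 kb. Tiles over 1000 kb away lay below crowded ones (-0.34) by -0.17 after loess and after normexp, -0.30 without the filter on dim probes, -0.16 with both channels well above background, -0.39 with outlier spots kept, -0.22 in the deposited table, -0.43 with medians of probes, -0.37 with 5 probes per tile and -0.29 with a tile gap of 500 bp. The excess of enriched tiles (1.35 percentage points) was 0.22 after loess, 0.50 after normexp, 0.51 with a tile gap of 500 bp, 0.84 at an isolation limit of 200 kb, 2.95 with both channels well above background, 2.45 after quantile normalization, 2.37 with equal spread, 2.29 in the deposited table and 2.12 with centring on usable probes. Array weights called 5 isolated tiles, and a scan batch block called 1. Of all tiles, 1 was called, against 3 after quantile normalization and in the deposited table, 24 with a scan batch block, 6 with a random block, 106 with array weights, 2 with trend and robust moderation, and 0 with equal spread, no filter on dim probes, both channels well above background, centring on usable probes, medians of probes or the replicate block. The replicate block gave 0 calls (limma; 575 tiles and 31 isolated tiles at an unadjusted p under 0.05). Leaving out 1 array at a time gave 0 to 3 calls, the 3 without cadmium replicate 2. The causes of these changes were not tested. The difference of the tile on chromosome 6 from 146987029 was -0.14 with equal spread, and that of the tile on chromosome 6 from 72683946 was -0.024 in the deposited table. With both channels well above background the control ratio of 8 of the 28 named tiles turned from below to above 0. Some of the 28 kept fewer than 3 probes under that setting and had no value. Among these were the tiles on chromosome 7 from 93894995 and on chromosome 8 from 7190146. Each of 8 other settings turned the control ratio in 1 tile.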
